A study of Mus musculus with 4 samples.

Results

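SR proteins and heterogeneous nuclear ribonucleoproteins (hnRNPs), the main RNA-binding regulators of splice site choice, were examined in sorted mouse melanocyte stem cells, the skin cells that renew the pigment cells of hair follicles. The genes were taken by name, as every listed gene called Srsf with a number, Hnrnp or Tra2a/Tra2b, which gave 33 of the 27933 genes in the count tables. The SR family held 13 genes (11 Srsf genes, Tra2a and Tra2b) and the hnRNP family 20. The rule uses no measured value. Stressed mice had received RTX (2 libraries) and control mice saline (2 libraries), and the labels name the stressing agent by that abbreviation alone. Both sets were harvested 12 h after injection, and strain, age and sex are not given in the labels. The cells were purified by fluorescence-activated sorting, and RNA was amplified with Smart-Seq V4 before RNA-seq. Going by its title, the study concerns the loss of these stem cells under strong sympathetic nerve activity. The labels do not say whether the libraries of a group came from separate animals, so a p-value here rests on library-to-library spread that may be technical in part.

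SR proteins join RNA recognition motifs to a tail of alternating arginine and serine residues. They usually bind exonic enhancers and help recruit the spliceosome, and kinases of the SRPK and CLK families set their activity by phosphorylating the tail. hnRNPs coat nascent transcripts and often silence exons, so that an exon's inclusion can depend on the balance between both families. Many of these genes also limit their own mRNA by splicing in an exon that sends the transcript to nonsense-mediated decay. Counts per gene, as used here, do not separate such isoforms.

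Libraries held between 9273652 and 11854280 counts, of which SR and hnRNP genes together took between 0.69% and 0.768%. Melanocyte markers were abundant, summing over 9 genes to 40135 and 37059 CPM (counts scaled by library total) in stressed libraries and to 23081 and 21772 CPM in control libraries. RNA of other skin cells was present too. Keratinocyte markers, 17 genes, summed to 12649 and 10914 CPM in stressed libraries and to 31057 and 18949 CPM in control libraries, and 11 of the 17 were below both controls in both stressed libraries. Fibroblast, immune and endothelial markers summed to between 0.38 and 53.4 CPM, and the fibroblast gene Lum and the endothelial gene Cdh5 were at 0 in all 4 libraries. Mitochondrially encoded transcripts took 0.479% and 0.405% of counts in stressed libraries and 0.906% and 2.07% in control libraries. Most cell types express SR and hnRNP genes, and the part of these differences in the results below was not tested.

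Transcripts of both families were abundant in both groups, and their levels lay close together between stressed and control cells. Of the 33 genes, 32 passed the filter on low counts, and none of the 32 was called as changed. At an adjusted p below 0.05, edgeR's quasi-likelihood test called 0 members, and over all genes it called 0 of 13348, or 0%. Limma-voom also called 0 genes in all, members included. DESeq2 called 0 members, while over all genes it called 4.5% of the 13089 genes to which it gave an adjusted p, 1.78% higher and 2.72% lower. Before adjustment, 1 member had an edgeR p below 0.05, Hnrnpdl, which was lower, against 12.8% of all genes tested (5.17% higher and 7.6% lower). The smallest adjusted p of any member was 0.362 by edgeR. In bulk RNA, a smaller share of cells expressing a gene and less RNA per cell cannot be told apart.

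The fitted differences were small in size. All 32 tested members lay within 0.5 log2 units of no difference, against 69.5% of all genes tested and 78% of the genes averaging at least 10 CPM, a level that all 32 members reached. For each of the 32, the 95% interval of the log2 fold change (stressed over control) stayed within a 2-fold change either way. The same held for 49.6% of all genes tested, for 66% of those of at least 10 CPM and for 79.9% of those of at least 50 CPM, a level reached by all 12 tested SR members and by 18 of 20 hnRNP members. With 1 library left out, the count of members was 18 and 24 with stressed replicate 1 or 2 left out, and 29 and 31 with control replicate 1 or 2 left out. The genes of at least 10 CPM then gave 31.4%, 35.7%, 67.6% and 59.6% in the same order, so that the share over these genes was lower in 3 of the 4 cases and slightly higher without control replicate 1.

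**Figure D1:**
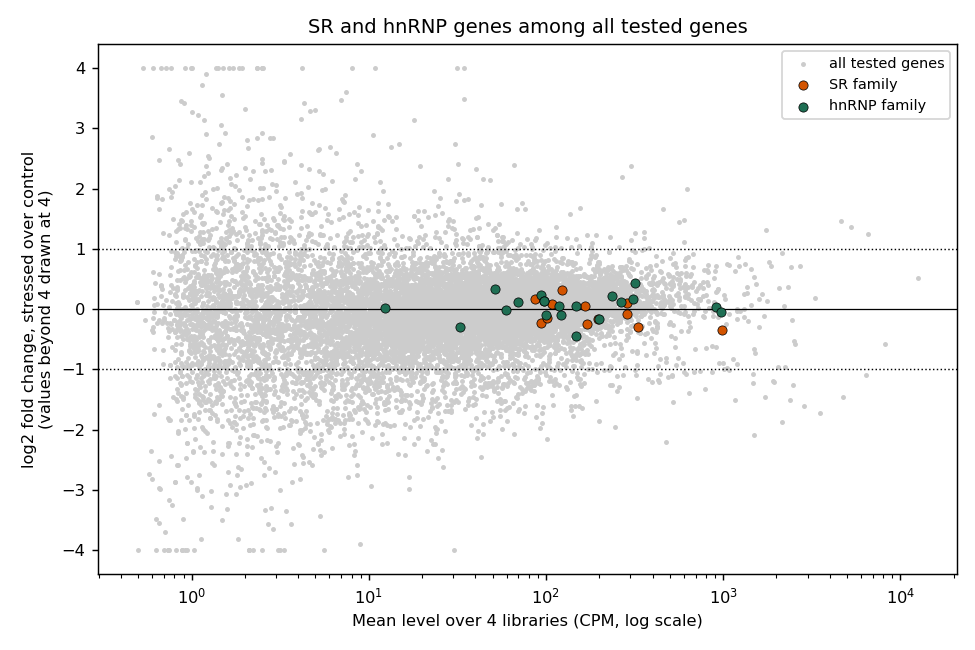
Log2 fold change, stressed over control, against the mean level over the 4 libraries (CPM, log axis) for all 13348 tested genes (grey), SR genes (orange) and hnRNP genes (green). Dotted lines mark a 2-fold difference. All 32 tested members lie between the dotted lines, within 0.5 log2 units of 0.

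Among the SR genes, levels spanned a wide range. TPM are counts divided by the exon length pooled over isoforms and scaled by the library sum, here averaged over the 4 libraries. On this scale Srsf5 was highest at 797, followed by Srsf7 at 410, Srsf3 at 211, Srsf9 at 208 and Srsf2 at 184. Srsf3, Srsf9 and Srsf2 overlapped in their library values. Srsf9 was above Srsf2 within every library, while the place of Srsf3 changed between libraries. Pooled exon lengths were 1360 bases for Srsf9, 2958 for Srsf2 and 5109 for Srsf3. The longest coding transcripts of these genes have 1162, 1899 and 2618 bases in the same order. Their order thus depends on the length used and is not resolved. Srsf6, Srsf4, Srsf1 and Srsf11 lay between 111 and 116 TPM with overlapping values. Tra2b, Srsf10 and Tra2a were between 47.1 and 56.2 TPM. Srsf12, in human a factor that opposes the other SR proteins, had 8 and 2 counts in stressed libraries and 0 and 2 in control libraries, and was not tested. A count of 0 in control replicate 1 allows up to 0.324 CPM, counting error only.

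**Figure D2:**
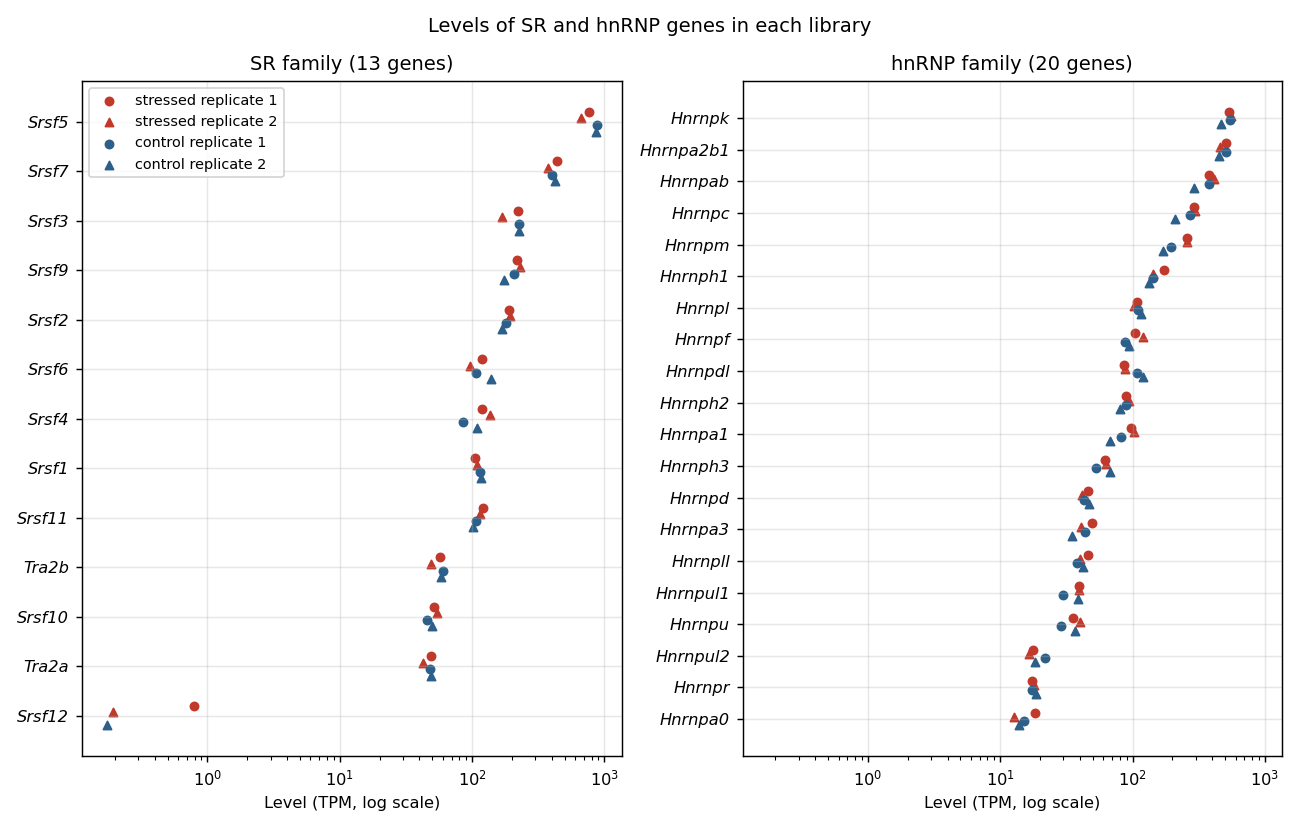
Level of each SR gene (left) and hnRNP gene (right) in TPM on a log axis, ordered by mean level, with 1 point for each library. Stressed libraries are red, control libraries blue, circles replicate 1 and triangles replicate 2. For most genes the 4 points nearly coincide, and Srsf12 stands alone near 1 TPM or below, its count of 0 in control replicate 1 not drawn.

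Srsf5, the most abundant SR transcript and one of the SR proteins with a pair of RNA recognition motifs (chromosome 12, 80945504 to 80950507, plus strand, mm10), stood at 924 and 798 CPM in stressed replicates 1 and 2, against 1119 and 1080.4 CPM in control replicates 1 and 2. Both stressed libraries lay below both controls. The fitted log2 value, -0.35 with a standard error (SE) of 0.21, was not called (edgeR adjusted p 0.548). Srsf3, the smallest SR protein and an adaptor for mRNA export, stood at 341 and 254 CPM in stressed libraries and at 370 and 362 CPM in control libraries. The groups did not overlap, but the stressed libraries lay further from each other than stressed replicate 1 lay from the controls. The log2 value of -0.30 (SE 0.21, edgeR adjusted p 0.63) moved to -0.52 when stressed replicate 1 was dropped and to -0.09 when stressed replicate 2 was.

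Srsf6, a relative of Srsf5 with the same domain plan, stood at 173 and 139 CPM in stressed libraries and at 165 and 207 CPM in control libraries. Here the groups overlapped, and the fitted value was -0.26 with an SE of 0.21 (-0.42 when stressed replicate 1 was dropped, -0.08 when control replicate 2 was). Srsf4, the third of these relatives, had values in the opposite direction. It stood at 127 and 146 CPM in stressed libraries against 96.9 and 121 CPM in control libraries. Both stressed libraries exceeded both controls, at a fitted log2 value of 0.32 (SE 0.20, edgeR adjusted p 0.559), the highest fitted value of the SR family. Dropping control replicate 1 gave 0.19 and dropping control replicate 2 gave 0.50.

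The other named SR genes differed less. Srsf7, which like Srsf3 links splicing to export, was at 302 and 257 CPM in stressed libraries and at 292 and 299 CPM in control libraries. Srsf2, a component of nuclear speckles, was at 171 and 170.0 CPM in stressed libraries and at 171 and 156 CPM in control libraries. Neither gene separated the groups. Srsf9, a close relative of Srsf1 with a short tail, was at 90.1 and 93.4 CPM in stressed libraries against 89.6 and 74.0 CPM in control libraries, a separation of less than 1 CPM between the nearest libraries. Its fitted value of 0.17 dropped to 0.04 with control replicate 2 left out and was 0.32 with control replicate 1 left out. Srsf10, which in human cells turns into a splicing repressor when dephosphorylated after heat shock, was at 108 and 114 CPM in stressed libraries and at 102 and 108 CPM in control libraries. Srsf11 stood at 306 and 289 CPM in stressed libraries and at 288 and 267 CPM in control libraries. Srsf1, the first SR protein described, had a fitted log2 value of -0.17 (SE 0.17), with both stressed libraries below both controls.

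Tra2a and Tra2b, the mammalian counterparts of fly transformer-2 that bind purine-rich enhancers, were both slightly lower in fitted value. Tra2b stood at 93.7 and 78.2 CPM in stressed libraries against 103 and 97.9 CPM in control libraries, with a log2 value of -0.22 and an SE of 0.18. Tra2a gave -0.15 with an SE of 0.18. Both stressed libraries were below both controls in each gene, and the 95% intervals, from -0.66 to 0.21 in Tra2b and from -0.57 to 0.27 in Tra2a, included 0. Each value rested in part on the stressed pair, being -0.36 in Tra2b and -0.26 in Tra2a with stressed replicate 1 dropped, and -0.09 and -0.04 with stressed replicate 2 dropped.

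The hnRNP transcripts were led by Hnrnpk, a protein that binds runs of cytosine, at 527 TPM, and Hnrnpa2b1, a member of the A/B group that also directs RNA transport, at 480 TPM. Within every library Hnrnpk was the higher in TPM, though the ranges of these genes overlapped between libraries. TPM used exon lengths pooled over isoforms, 5634 bases for Hnrnpk and 6584 bases for Hnrnpa2b1. Their longest coding transcripts have 2970 and 1728 bases, and in mean CPM Hnrnpa2b1 was the higher, at 973 against 912. The order of Hnrnpk and Hnrnpa2b1 thus depends on the length used and is not resolved. Hnrnpab at 363, Hnrnpc at 268, Hnrnpm at 220 and Hnrnph1 at 148 TPM came next, while Hnrnpr at 17.9 and Hnrnpa0 at 15.0 TPM were lowest. The TPM of Hnrnpr rests on a pooled exon length of 22199 bases, the longest of any member. Its mean of 122 CPM was slightly above the family median of 120.2 CPM. Hnrnpk stood at 917 and 934 CPM in stressed libraries and at 977 and 821 CPM in control libraries. Hnrnpa2b1 was at 1017 and 896 CPM in stressed libraries and at 1062 and 919 CPM in control libraries. In both genes the groups overlapped, and the fitted log2 values were 0.04 and -0.05, each with an SE of 0.21.

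Hnrnpdl, an AU-rich-element binding protein related to Hnrnpd (chromosome 5, 100033577 to 100039664, minus strand, mm10), had the lowest fitted value of either family. It stood at 126.1 and 126.5 CPM in stressed libraries against 164 and 178 CPM in control libraries, so that the stressed pair nearly coincided and lay well below both controls. In log2 units the difference was -0.44 (SE 0.17), its interval running from -0.85 to -0.03. Over all genes it was not called, with adjusted p values of 0.362 by edgeR and 0.317 by DESeq2. The value stayed between -0.48 and -0.38 with each library left out. Hnrnpd itself, also called AUF1 and known for destabilising mRNAs, was at 103 and 90.4 CPM in stressed libraries and at 100.3 and 106 CPM in control libraries, without separation.

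Hnrnpm, a GU-binding hnRNP that in human cells promotes the mesenchymal form of several transcripts (chromosome 17, 33646233 to 33686860, minus strand), had the highest fitted value of either family. It stood at 367 and 363 CPM in stressed libraries against 292 and 247 CPM in control libraries. Both stressed libraries lay above both controls. In log2 units the difference was 0.44 (SE 0.19), its interval running from -0.02 to 0.90. The adjusted p was 0.411 by edgeR and 0.28 by DESeq2, and leaving out each library in turn gave values between 0.33 and 0.58. In these annotations 24.9% of Hnrnpm's exon length also belongs to March2 on the same strand, and by the settings in the file headers a read touching exons of 2 genes is not counted. The overlapped share was larger for Hnrnpu (30.8%, same strand), Hnrnpab (29.1%, opposite strand) and Srsf2 (25.3%, opposite strand). Counting did not use the strand, so the levels of all these genes may be understated.

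Other hnRNPs with higher fitted values were Hnrnpa1, Hnrnpf and Hnrnpc. Hnrnpa1, an exon silencer of the A/B group, was at 55.9 and 58.8 CPM in stressed libraries against 50.03 and 40.6 CPM in control libraries, with a log2 value of 0.34 and an SE of 0.21. Hnrnpf, which binds runs of guanine, was at 95.2 and 109 CPM in stressed libraries against 84.5 and 89.0 CPM in control libraries. Hnrnpc, which covers uridine tracts, was at 252 and 255 CPM in stressed libraries against 248 and 188 CPM in control libraries. All 3 separated the groups, with fitted values between 0.22 and 0.34 that were not called. Dropping control replicate 2 gave 0.04 for Hnrnpc and 0.20 for Hnrnpa1, dropping control replicate 1 gave 0.45 and 0.51, and Hnrnpf was at 0.14 with stressed replicate 2 dropped. Hnrnpa1 and Hnrnpf share 46.4% and 49.0% of the 50-base stretches of their longest coding transcript with other GENCODE M21 genes, processed pseudogenes among them, and Hnrnpc shares 12.3%. Reads from such stretches may not be placed uniquely, so the levels of these genes are uncertain, as are those of Hnrnpk (34.5%), Srsf3 (31.5%), Hnrnpa3 (28.2%), Srsf5 (27.9%), Tra2b (18.3%) and Hnrnph2 (18.1%).

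Lower values were also found for Hnrnpl and Hnrnpul2. Hnrnpl, a reader of CA repeats, was at 195 and 183 CPM in stressed libraries against 207 and 214 CPM in control libraries. Hnrnpul2, a relative of the scaffold protein Hnrnpu, was at 30.5 and 28.4 CPM in stressed libraries against 39.6 and 32.5 CPM in control libraries. Both separated the groups, with log2 values of -0.16 (SE 0.17) and -0.29 (SE 0.24). Hnrnpul2 was at -0.13 with control replicate 1 dropped, and Hnrnpl at -0.10 with stressed replicate 2 dropped. The abundant Hnrnpab and Hnrnph1 did not. Hnrnpab stood at 315 and 340.2 CPM in stressed libraries and at 336 and 251 CPM in control libraries, and Hnrnph1 at 305 and 249 CPM in stressed libraries and at 266 and 244 CPM in control libraries. The remaining 8 hnRNP genes had fitted values between -0.09 and 0.14, each smaller than its SE.

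**Figure D3:**
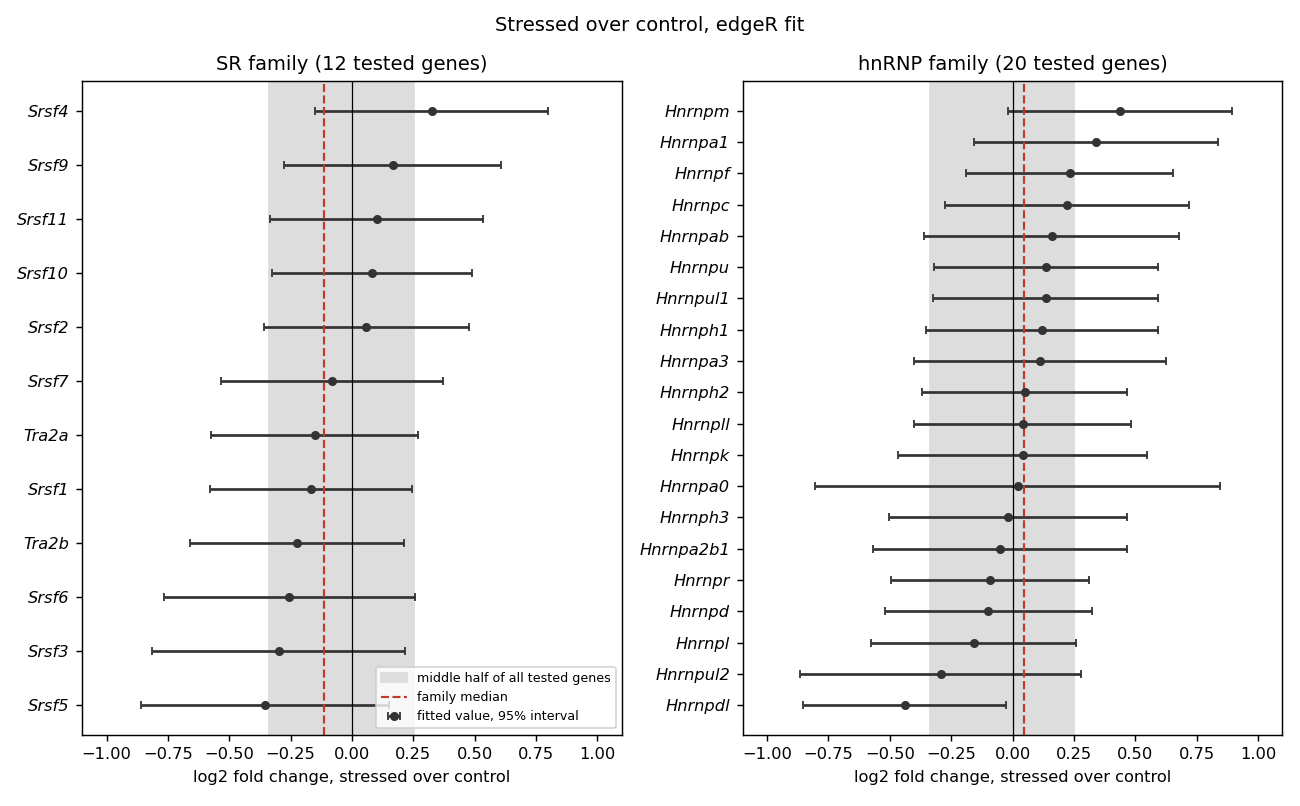
Fitted log2 fold change, stressed over control, of the tested SR genes (left) and hnRNP genes (right), with 95% intervals from edgeR. The grey band spans the quartiles of all tested genes and the red dashed line is the family median, -0.12 for SR and 0.05 for hnRNP. Every interval stays within 1 log2 unit of 0, and that of Hnrnpdl alone excludes 0.

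Set side by side, the families had medians on either side of 0. Of the 12 tested SR genes, 7 had fitted values below 0 and 5 above, with a median of -0.12. For the 10 tested Srsf genes alone, without Tra2a and Tra2b, 5 were below 0 and 5 above, with a median of -0.01. Of the 20 hnRNP genes, 7 were below 0 and 13 above, with a median of 0.05. Over all genes tested, 50.9% were below 0 and 49.1% above, with a median of -0.01. The libraries of the groups did not overlap in 8 SR genes, 3 with higher stressed libraries and 5 with lower, and in 8 hnRNP genes, 4 each way. That is 16 of 32, against 44.7% of all genes tested (21.8% above and 22.9% below). The Srsf genes alone had 3 each way. Both medians depended on single libraries. Without stressed replicate 2 the SR median was -0.0003, and without stressed replicate 1 it was -0.17. The hnRNP median fell below 0 when stressed replicate 1 (-0.02) or control replicate 2 (-0.03) was left out, and the number of hnRNP genes below 0 was then 11 in each case.

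Summed over the family, SR transcripts stood at 2929 and 2590.0 CPM in stressed libraries against 3131 and 3072 CPM in control libraries, a log2 ratio of group means of -0.17. Summed hnRNP transcripts stood at 4541 and 4314 CPM in stressed libraries and at 4550 and 4045 CPM in control libraries, a log2 ratio of 0.04. Thus the SR sums separated the groups and the hnRNP sums did not. Srsf5 supplied 31.6% and 30.5% of SR counts in stressed libraries and 36.0% and 35.02% in control libraries. Without Srsf5 the SR sums were 2002 and 1799 CPM in stressed libraries against 2005 and 1996 CPM in control libraries. The groups then overlapped, and the SR log2 ratio was -0.07. The ratio of summed SR to summed hnRNP TPM was 0.83 and 0.763 in stressed libraries against 0.88 and 0.99 in control libraries. Leaving out Srsf5, that ratio was 0.571 and 0.535 in stressed libraries and 0.566 and 0.643 in control libraries, and the groups overlapped. With 2 libraries a group no exact test of such a sum can pass a 0.05 threshold, and none was run.

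**Figure D4:**
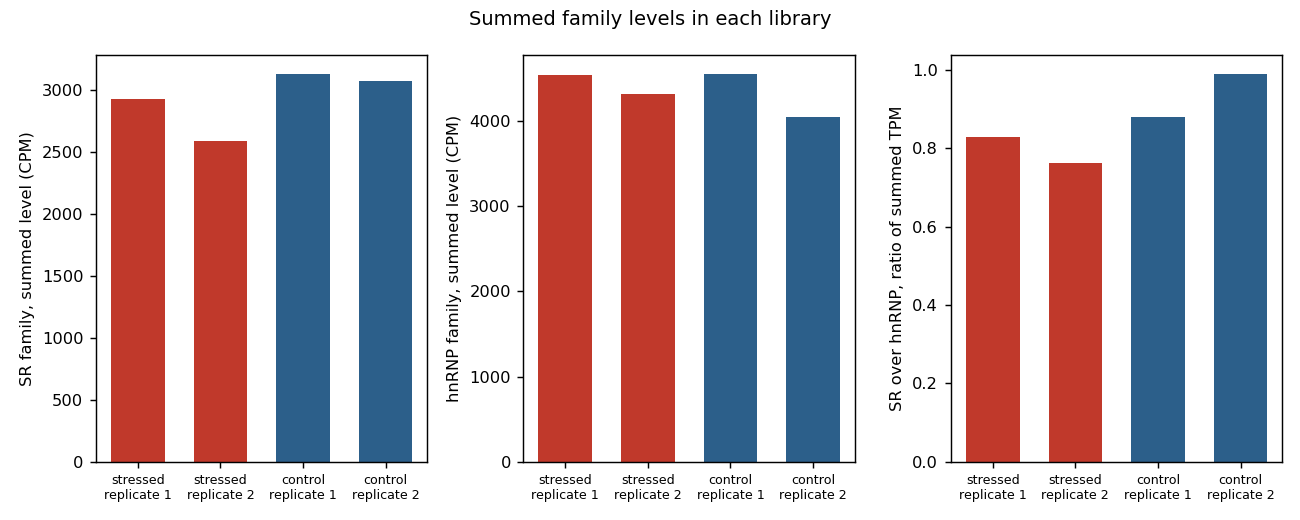
Summed level of the SR family (left, CPM) and the hnRNP family (middle, CPM), and the ratio of summed SR to summed hnRNP TPM (right), in each stressed library (red) and control library (blue). SR bars are lower in both stressed libraries, hnRNP bars overlap between groups, and the ratio is 0.83 and 0.763 in stressed libraries against 0.88 and 0.99 in control libraries.

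Replicate spread of the families rests on a single pair of libraries per group, and a difference in it was not tested. In the stressed pair, the median absolute log2 difference between libraries was 0.206 for SR genes and 0.0972 for hnRNP genes. Stressed replicate 1 was the higher in 8 of 12 SR genes and in 10 of 20 hnRNP genes. In the control pair the order was reversed, with 0.0812 for SR genes and 0.224 for hnRNP genes. All genes tested had 0.253 in the stressed pair and 0.368 in the control pair. No member was more than 2-fold apart within either pair.

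Promoter sequences are shown for the SR gene with the lowest fitted value (Srsf5), for the hnRNP genes with the lowest and the highest (Hnrnpdl and Hnrnpm), and for Tra2a, the 1 member whose window held the full palindrome TGACGTCA, the cyclic AMP response element, a motif read by CREB factors downstream of adrenergic signalling. Windows run from 250 bases before to 50 bases after a RefSeq start (GRCm38.p6, the build also called mm10), 5′ to 3′ on the strand of the gene. Capitals mark 4 motifs found on either strand: TGACG (the core of the response element, also within its full form), the E-box CACGTG, the CCAAT box and the TATAAA box.
Srsf5, chr12:80945249-80945548, plus strand: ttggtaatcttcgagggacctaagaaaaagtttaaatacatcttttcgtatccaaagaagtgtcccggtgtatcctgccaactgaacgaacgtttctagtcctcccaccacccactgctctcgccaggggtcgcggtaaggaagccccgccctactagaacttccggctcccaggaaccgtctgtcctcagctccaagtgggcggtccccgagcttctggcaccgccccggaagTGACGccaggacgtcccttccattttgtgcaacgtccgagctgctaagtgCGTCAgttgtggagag
Tra2a, chr6:49264003-49264302, minus strand: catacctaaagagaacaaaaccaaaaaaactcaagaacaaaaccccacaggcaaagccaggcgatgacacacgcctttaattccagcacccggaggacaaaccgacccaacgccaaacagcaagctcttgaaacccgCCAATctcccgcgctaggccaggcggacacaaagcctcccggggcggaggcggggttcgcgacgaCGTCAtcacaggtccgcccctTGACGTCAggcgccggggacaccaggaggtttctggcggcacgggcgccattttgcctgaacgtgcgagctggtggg
Hnrnpdl, chr5:100039173-100039472, minus strand: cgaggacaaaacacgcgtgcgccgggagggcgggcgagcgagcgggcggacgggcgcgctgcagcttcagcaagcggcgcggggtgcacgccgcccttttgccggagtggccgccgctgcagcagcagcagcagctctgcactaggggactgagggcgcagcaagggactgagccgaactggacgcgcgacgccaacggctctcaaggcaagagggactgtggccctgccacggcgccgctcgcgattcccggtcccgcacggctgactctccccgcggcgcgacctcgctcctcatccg
Hnrnpm, chr17:33685409-33685708, minus strand: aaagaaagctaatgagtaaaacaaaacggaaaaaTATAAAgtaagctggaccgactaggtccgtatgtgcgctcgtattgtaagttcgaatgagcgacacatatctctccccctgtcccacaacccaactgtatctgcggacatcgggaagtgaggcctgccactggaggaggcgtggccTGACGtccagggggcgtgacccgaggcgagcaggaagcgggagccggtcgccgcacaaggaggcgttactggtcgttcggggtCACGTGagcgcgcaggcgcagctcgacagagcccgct
The Srsf5 window held TGACG once on each strand, close to the start, whereas the Hnrnpdl window held none of the marked motifs. The Hnrnpm window held 1 TGACG, 1 E-box and 1 TATAAA box. RefSeq promoters were matched for 31 of the 33 members (Hnrnpll and Hnrnpul2 had no entry), with 43 windows in all. TGACG was found in at least 1 window of 20 of the 31 genes (64.5%), against 35.1% of 10038 tested genes with a window. Counted by window, it was in 58.1% of member windows, 30.2% of the windows of tested genes and 20.8% of all 32851 windows. TGACGTCA was in 2.33% of member windows and in 1.79% of all windows, but it was in 3.07% of the windows of tested genes, more than in member windows. CCAAT was in 51.2% of member windows, 37.7% of the windows of tested genes and 37.4% of all windows. GAANNTTC, a heat shock element core, was in 14% of member windows, 5.64% of the windows of tested genes and 7.86% of all windows. Member windows were richer in G and C, with a median of 67.3% against 60.7% in windows of tested genes and 52.7% in all windows. These are matches of letters, not measured binding.

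The rest of the splicing machinery was read from 8 lists chosen for this pathway. Among 12 hnRNP proteins that carry other names, Cirbp (also hnRNP A18), a cold-inducible RNA-binding protein, fell by DESeq2. It stood at 30.04 and 30.8 CPM in stressed libraries against 60.0 and 115 CPM in control libraries, a log2 difference of -1.53 (SE 0.33). The adjusted p was 0.00151 by DESeq2 and 0.161 by edgeR, and the control pair itself lay far apart. Without control replicate 2 the value was -0.98, and DESeq2 no longer called it without that library (adjusted p 0.113), stressed replicate 1 (0.145) or stressed replicate 2 (0.232). EdgeR called Cirbp with no low-count filter (adjusted p 0.000211) and without control replicate 1 (0.000213). Pcbp4, the highest of the list, gave 0.52 and was not called by either tool (0.30 with stressed replicate 2 dropped, 0.78 with control replicate 2 dropped), and 6 of the 12 were below 0.

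In the list of 38 tested splicing regulators outside both families, the calls were Esrp1 and Esrp2, the epithelial splicing regulators that set the epithelial form of many transcripts. Esrp1 stood at 43.4 and 39.8 CPM in stressed libraries against 117 and 85.8 CPM in control libraries, and Esrp2 at 69.8 and 69.5 CPM in stressed libraries against 165 and 147 CPM in control libraries. Both fell by DESeq2, at adjusted p values of 0.00035 for Esrp1 and 3.39e-05 for Esrp2. The edgeR log2 values were -1.29 (SE 0.22) and -1.16 (SE 0.18), and neither passed edgeR, at adjusted p values of 0.127 and 0.121. With no low-count filter edgeR called both (0.000504 and 0.000836), as it did with control replicate 1 dropped (0.0185 and 0.0073) or control replicate 2 dropped (0.00893 and 0.0102). Keratinocyte markers, given above, were lower in the same libraries, and their part in the fall was not tested. DESeq2 did not call either gene without stressed replicate 1 (adjusted p 0.122 for Esrp1 and 0.144 for Esrp2) or without stressed replicate 2 (0.349 and 0.272). Celf2, a CUG-binding regulator, had the highest value of the list among genes of at least 10 CPM, at 276 and 272 CPM in stressed libraries against 157 and 222 CPM in control libraries, a log2 value of 0.53 that neither tool called. With control replicate 1 dropped it was 0.31, and with control replicate 2 dropped it was 0.80 and DESeq2 called it (adjusted p 0.013).

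The SR protein kinases and nuclear import receptors had 10 of 12 tested members above 0 and a median of 0.12 (0.29 without control replicate 2). Tnpo1, the importin that carries hnRNP A1-type proteins into the nucleus, stood at 110.4 and 89.9 CPM in stressed libraries against 65.1 and 50.4 CPM in control libraries. Its log2 value was 0.79 (SE 0.21) and not called, with adjusted p values of 0.234 by edgeR and 0.0631 by DESeq2. It was called by edgeR when no low-count filter was used (adjusted p 0.0373), and with control replicate 1 dropped by both edgeR (0.0232) and DESeq2 (0.0322). Dyrk1b, the lowest of that list, was at -0.04 (SE 0.32).

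Core spliceosome lists had medians above 0, without a call by edgeR or DESeq2 in the fit to all 4 libraries. U1, U2 and U2AF components had 13 of 20 above 0 and a median of 0.10, from Sf3a2 at 0.41 to Sf3b6 at -0.41. The tri-snRNP list had 19 of 23 above 0 and a median of 0.16, from Usp39 at 0.53 to Lsm7 at -0.27. The Sm core had 5 of 8 above 0 and a median of 0.08. Among its genes of at least 10 CPM the extremes were Snrpd3 at 0.36 and Snrpg at -0.05, and the lowest value of the list was -0.55. SR-related coactivators had 14 of 21 above 0 and a median of 0.10, with Rnps1 at 0.41 and Luc7l2 at -0.66. Nonsense-mediated decay and exon junction genes, which act on the unproductive isoforms of SR and hnRNP genes, had 5 of 15 above 0 and a median of -0.08, with Smg5 at 0.36 and Smg8 at -0.59. All of these named values were uncalled in the fit to all 4 libraries, and the share above 0 over all genes tested was 49.1%, as given above. These medians and single values shifted with 1 library left out. The edgeR median of the Sm core was -0.06 with control replicate 2 dropped and 0.24 with control replicate 1 dropped, that of the U1, U2 and U2AF list lay between 0.07 and 0.17, and that of the tri-snRNP list between 0.10 and 0.21. Smg8 ran from -1.20 with stressed replicate 2 dropped to -0.15 with stressed replicate 1 dropped. Usp39 lay between 0.31 and 0.82 and Sf3a2 between 0.24 and 0.62, with the extremes when a control library was dropped, and Snrpd3 between 0.19 and 0.52, with the extremes when a stressed library was.

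**Figure D5:**
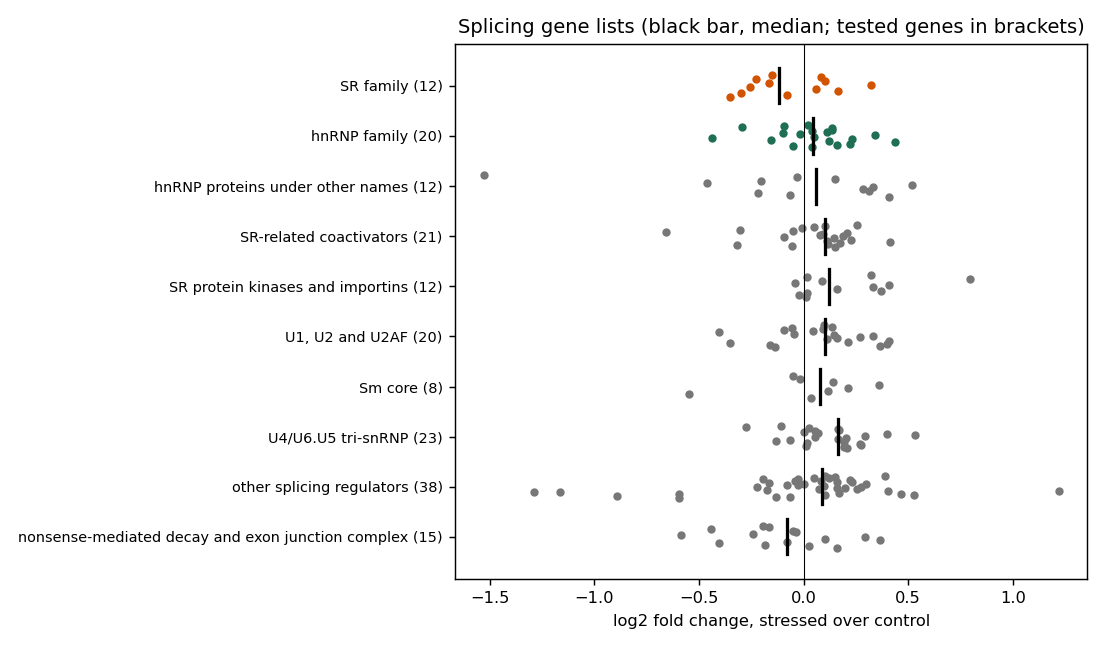
Fitted log2 fold change, stressed over control, of the tested genes of both families and 8 further splicing lists, 1 point per gene, with the median as a black bar and the number of tested genes in brackets. The SR and decay lists have medians below 0, the others above 0, and the points below -1 are Cirbp, Esrp1 and Esrp2.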

How the data were processed

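RNA-seq of sorted mouse melanocyte stem cells was analysed from 4 count tables, 2 stressed and 2 control. The authors deposited whole-number counts per gene, made with featureCounts 1.6.1 per the file headers, from exons grouped by gene name, at a mapping quality of at least 30, without strand or read-pair options. Strand therefore could not separate a gene from an antisense neighbour, and a read touching exons of both was not counted. The submitters' processing notes name the build mm10 and the tools STAR 2.5.3, Trim Galore 0.4.1 and DESeq2 1.22.2. Per the file headers, stressed replicates 1 and 2 came from alignments numbered 2 and 3.

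Counts were fitted in R 4.3.3 with edgeR 4.0.16 (filterByExpr at a minimum count of 10, TMM, quasi-likelihood F-test, group as the only term, Benjamini-Hochberg over 13348 genes, called below 0.05). CPM of single genes use TMM-scaled totals, and sums use all counts. TPM divide counts by the deposited exon length, which pools all isoforms. The SE is the absolute log2 fold change over the square root of F. Alternatives were DESeq2 1.42.0, limma-voom (limma 3.58.1), other scalings and filters, a replicate block and each library left out. The fits were tested on simulated counts. Chi-square per degree of freedom within groups was 17.99 (stressed) and 53.99 (control), so no library was counted as a duplicate. Members and lists were chosen with earlier results of these data known.

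Named members were the 6 most abundant of each family, the 4 highest and 4 lowest fitted values of each at 10 CPM or more, and any member called or with an unadjusted edgeR p below 0.05; of each list, calls by edgeR or DESeq2 and the extremes at 10 CPM or more. Srsf1, Tra2a and Srsf12 were added after their values were seen.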

Additional observations from a re-analysis of the deposited data

How the results depend on the processing

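No SR or hnRNP gene was called under any of the 15 alternatives, the smallest adjusted p being 0.157. The count over all genes did move, from 0 by edgeR to 760 with no low-count filter and 589 by DESeq2, and with 1 library left out to between 0 and 739 by edgeR and between 47 and 800 by DESeq2 (144 and 47 without stressed replicate 1 or 2, 477 and 800 without control replicate 1 or 2); the cause was not tested. With 1 library left out the SR median ran from -0.17 to -0.0003 by edgeR (-0.0012 by DESeq2 without stressed replicate 2), and the hnRNP median from -0.0318 to 0.0956 (-0.0303 by DESeq2 without control replicate 2). The SR summed log2 ratio ran from -0.26 to -0.0827 with 1 library left out, and was -0.0737 without Srsf5, its most abundant member.

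Of the 32 tested members, 19 kept the sign of their fitted value under all 15 alternatives, and the other 13 had fitted values of at most 0.16 in size. Leaving out 1 library turned signs, giving ranges over the edgeR fits of -0.053 to 0.31 for Hnrnpa3, -0.029 to 0.15 for Hnrnph2, -0.15 to 0.071 for Hnrnpa2b1, -0.0093 to 0.32 for Hnrnpul1, -0.16 to 0.16 for Hnrnph3, -0.028 to 0.27 for Hnrnph1, -0.035 to 0.40 for Hnrnpab, -0.0052 to 0.14 for Srsf2, -0.27 to 0.28 for Hnrnpa0, -0.076 to 0.18 for Hnrnpk, -0.075 to 0.16 for Hnrnpll and -0.20 to 0.041 for Srsf7. DESeq2 without control replicate 1 gave -0.0016 for Hnrnpu, 0.0637 for Hnrnpa2b1, -0.0167 for Hnrnpul1, -0.0103 for Hnrnpll, 0.0932 for Sf3b6 and 0.094 for Snrpg. DESeq2 without control replicate 2 gave -0.0513 for Hnrnpa3, -0.0274 for Hnrnph2, 0.1659 for Hnrnph3, -0.0332 for Hnrnpab, -0.0036 for Srsf2, -0.0578 for Hnrnpa0, -0.0741 for Hnrnpk and 0.4226 for Dyrk1b. DESeq2 without stressed replicate 1 gave -0.0314 for Hnrnpa3, -0.0238 for Hnrnph1, -0.2693 for Hnrnpa0 and -0.0702 for Hnrnpll. DESeq2 without stressed replicate 2 gave 0.0461 for Hnrnpa2b1, 0.0402 for Srsf7 and 0.0562 for Dyrk1b. Among the other splicing genes, signs turned for Dyrk1b (-0.37 to 0.42), Sf3b6 (-0.77 to 0.1004) and Snrpg (-0.18 to 0.1013).

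The replicate number is shared between groups but the labels tie it to nothing. Deviations of same-numbered libraries correlated at 0.174 over all genes, which are not independent. With the replicate block, edgeR called 0 genes and 0 members, the medians were -0.12 for SR and 0.05 for hnRNP genes, Hnrnpa0 was at -0.0021 and Dyrk1b at 0.0102. Counting intervals within a 2-fold change was chosen after seeing the data, and with no low-count filter the count was 32 of 33. Depth limits Srsf12, which had at most 8 counts.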
